A study of Homo sapiens with 12 samples.

Results

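The mRNA-seq libraries of 2 human glioblastoma lines, U87 (U-87MG) and U118 (U-118MG), were examined for changes that the temozolomide-resistant state shared in both. Resistant lines had formed under continuous exposure to 50 µM temozolomide (TMZ), an alkylating drug, and were set against the sensitive line that the labels give as their origin, with 3 libraries in each of the 4 groups. The parental cells had been sorted as CD133- and CD15- and kept in DMEM/F12 with 10% serum and BMP2, and the labels do not say whether the libraries came from separate cultures, so p-values measure only the spread between these libraries. Each resistant population had arisen in 1 line under 1 drug dose, and no second resistant derivative of either line was analysed here. The gene tables of the 2 lines, in which values are scaled within each library, were joined on Ensembl identifiers, and 13217 of 58174 genes had at least 1 TPM (a level per transcript length, with the same total in every library) in at least 3 libraries of each line. A gene was described as separated when its 3 resistant libraries all lay above, or all below, the 3 sensitive libraries in both lines and in the same direction. The rule took 2683 genes, 538 higher (4.07% of those tested) and 2145 lower (16.2%) in the resistant libraries. Where the TPM of a gene are set against each other below, 3 single values are given sensitive first, and ranges are given resistant first.

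TMZ methylates DNA bases, and mispaired methylated guanine leads to strand breaks and to activation of the ATM, ATR and p53 pathways. The transcription factor p53 induces CDKN1A, which encodes the cyclin-dependent kinase inhibitor p21, and p21 allows RB-family proteins to repress E2F and MuvB target genes, among them most genes of mitosis. Arrested cells that stay alive often secrete interleukins, chemokines and proteases through NF-kappa B, a program known from senescent cells. The cells sequenced after TMZ were, according to the paper, aggregates from cells that had re-entered the cell cycle. The paper reports no senescent features in newly formed aggregates, and a smaller share of them than of control cells in G1. It also reports senescence gene sets as raised in their mRNA, and slower growth than control cells without TMZ.

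Several libraries stood apart before any gene was considered. Mitochondrially encoded genes held 12.9 to 16.9% of the TPM in U87 sensitive libraries and 22.2 to 23.7% in U87 resistant ones, and 7.42 to 19.7% in U118 sensitive and 13.2 to 29.9% in U118 resistant libraries. U118 resistant replicate 1 had a scaling factor of 1.24 against 0.764 and 0.847 for the other replicates of its group, and U87 sensitive replicate 2 departed from its group at several genes given below. Across genes, the U118 resistant libraries had Spearman correlations of 0.881 to 0.902 with U87 sensitive libraries and 0.899 to 0.909 with U87 resistant ones, but of 0.806 to 0.849 with the sensitive libraries of their own line. U87 resistant libraries correlated at 0.928 to 0.941 with U87 sensitive libraries. The median absolute difference between the lines was 0.69 on the log2(TPM + 1) scale in the sensitive state and 0.42 in the resistant state, and the mean of 79.5% of all tested genes moved in U118 toward the level of sensitive U87. Both sides of that last comparison use the U118 sensitive mean, so part of the 79.5% is built in, and no baseline was computed. The 0.69, 0.42 and 79.5% are from TPM without scaling. Scaling factors were 1.288 to 1.398 in U118 sensitive and 0.9287 to 1.165 in U87 sensitive libraries. The part of these library differences in the results was not tested, and no library could be left out to remove them, since they involve all 3 U118 resistant libraries. Whether the libraries labelled U118 resistant come from U118 cells was not tested, and every U118 and common value rests on that label. Levels or changes within U87, which do not use those libraries, are given for the genes described in detail and calls within U87 for 4 lists.

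Defining glial markers were in part absent. GFAP stayed below 1 TPM in every library, AQP4 was listed at 0 throughout, and 5 of the 10 glial and neural stem markers were below 1 TPM everywhere. The astrocyte marker ALDH1L1 was at 24.1, 20 and 23.2 TPM in U87 sensitive and 4.03 to 4.54 TPM in U87 resistant libraries and below 1 TPM in U118, and the glial factor OLIG2 was at 1.45 to 4.45 TPM in U87. Mesenchymal glioma markers were abundant, with a sum over the 7 genes of 12582 to 18673 TPM. Of 7 immune markers CD68 alone was tested and the other 6 stayed below 1 TPM, the 6 endothelial markers summed to at most 5.74 TPM, and the 6 epithelial markers summed to 7.40 to 8.77 TPM in U87 sensitive and 10.7 to 11.9 TPM in U87 resistant libraries, and to 5.42 to 8.32 and 10.7 to 19.6 TPM in the U118 groups. The keratin KRT8 held most of the epithelial sum except in U118 sensitive libraries, where KRT14 did, and KRT5 and EPCAM stayed below 1 TPM everywhere. The 7 fibroblast markers moved in opposite directions, from 44.8 to 48.2 up to 109 to 126 TPM in U87 and from 767 to 1011 down to 170 to 349 TPM in U118. Neuronal marker sums overlapped between the states of U118, at 53.6 to 95.7 TPM in sensitive and 54.1 to 102.5 TPM in resistant libraries. They were 71.8 to 109 TPM in sensitive and 58.3 to 66.3 TPM in resistant U87 libraries.

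The common fit called more genes than U87 alone and fewer than U118 alone. In a limma fit over the 12 libraries with line as a covariate, 480 genes (3.63%) rose and 1205 (9.12%) fell, at an adjusted p under 0.05 and a log2 change of at least 1 in size. The common fit held no term for a change that differs between the lines. Its SE and p-values therefore include that difference, as for GDF15, with an SE of 0.62 in common, 0.16 in U87 and 0.22 in U118. Fitted alone, U87 had 349 genes called higher (2.64%) and 1001 lower (7.57%), and U118 had 1154 (8.73%) and 3088 (23.4%). Of the 2683 separated genes, 293 higher and 834 lower ones were also called in common. Separation held on the wider criterion that all 6 resistant libraries lay beyond all 6 sensitive libraries for 265 higher and 809 lower genes. Among the called genes, 187 higher and 371 lower ones were not separated.

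The balance of the directions depended on how the libraries were scaled. In TPM, the median gene was lower in the resistant libraries by 0.35 in common, 0.25 in U87 and 0.45 in U118 on the log2(TPM + 1) scale. After median-ratio scaling of the 12 libraries the medians were 0.01, 0.00 and 0.02, and 1230 genes (9.31%) were separated higher and 918 (6.95%) lower. The called genes then numbered 773 higher (5.85%) and 329 lower (2.49%), so the share of higher genes among those called went from 28.5% in TPM to 70.1%. All 538 genes separated higher in TPM were also separated higher after scaling, and 918 of the 2145 lower ones remained, which gives 1456 genes separated under both. Of these, 293 higher and 222 lower genes were also called under both. Scaling factors were 0.8102 to 0.8723 in resistant and 0.9287 to 1.165 in sensitive U87 libraries, and 0.7645 to 1.238 and 1.288 to 1.398 in U118. Dividing by them can only widen a rise and narrow a fall. The outcome was therefore fixed for the 538 higher genes and is no check on them. Counts of separated list members in TPM are given below with the scaled count beside them. A fall smaller than the median shift is a fall only on the TPM scale.

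**Figure D1:**
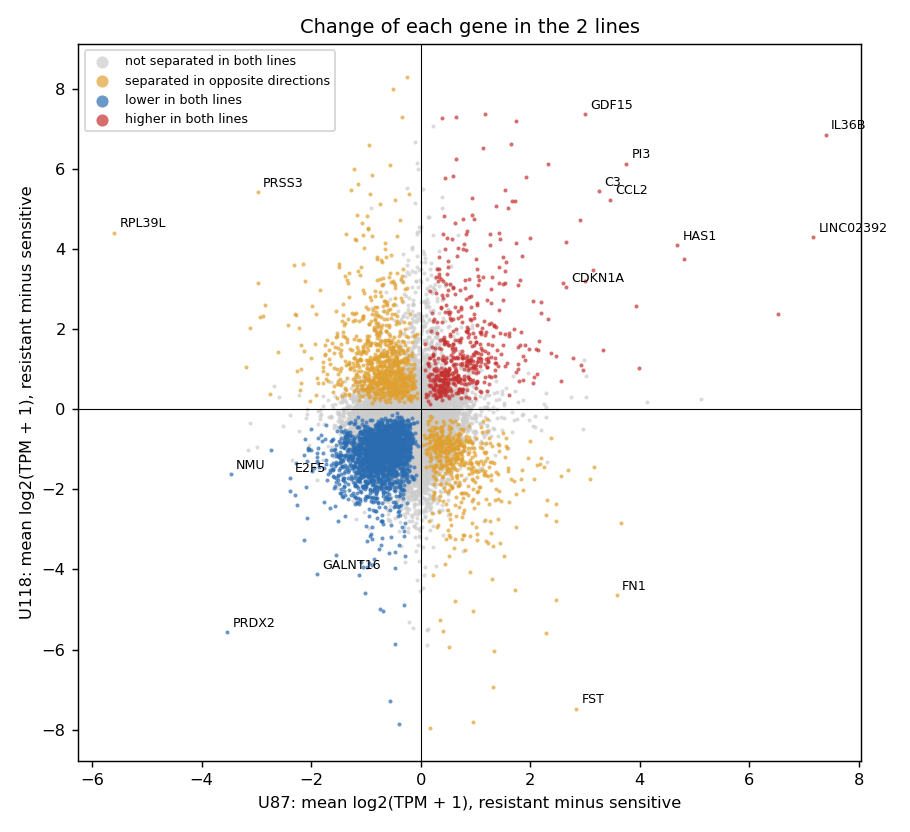
Each point is 1 of the 13217 genes tested, placed by its resistant minus sensitive difference of mean log2(TPM + 1) in U87 (horizontal) and U118 (vertical), 3 libraries per group; colours mark the genes separated the same way, in opposite directions or not at all. The 2145 genes separated lower form a dense group near the origin, while the higher ones reach out to IL36B at 7.40 in U87 and 6.85 in U118.

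Of the 14 genes with the largest shared rise, IL36B ranked first. IL36B (ENSG00000136696, chr2:113022091-113052867 in GRCh38), which encodes the cytokine interleukin 36 beta, was at 0.988, 0.88 and 0.15 TPM in the U87 sensitive libraries and at 279, 266 and 274 TPM in the resistant ones. In U118 it was at 1.68, 1.82 and 3.68 TPM in sensitive and 145, 629.6 and 592 TPM in resistant libraries. The states were far apart in both lines, from under 4 TPM to at least 145 TPM, and the common log2 change was 7.13 (SE 0.33, adjusted p = 1.38e-07). Its neighbour IL1RN (chr2:113107214-113134016), which encodes the interleukin 1 receptor antagonist, was at 2.33, 2.8 and 3.97 against 93.2, 165 and 87.3 TPM in U87 and 14.3, 25.7 and 19.3 against 74.7, 491 and 529 TPM in U118. U118 resistant replicate 1 was the lowest of its group at both genes and still lay above every sensitive library. The common change of IL1RN was 4.27 (SE 0.43, adjusted p = 3.7e-05). IL1B (chr2:112829751-112836903), the gene of interleukin 1 beta in the same region of chromosome 2, was listed at 0 in the 3 U87 sensitive libraries and at 2.96, 2.58 and 2.84 TPM in the resistant ones. In U118 it was at 0.694, 0.329 and 0.927 against 107, 73 and 94.6 TPM, a rise of 5.81, and no fold is given for U87, where the sensitive group was listed at 0.

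CCL2, a monocyte attractant, was at 1.8, 3.23 and 2.52 against 38.3, 35.3 and 37.9 TPM in U87 and at 0.0751, 0.432 and 0.117 against 46.1, 39 and 47.7 TPM in U118, with a common change of 4.35 (SE 0.29, adjusted p = 2.96e-06). Its resistant levels were closer between the lines than its sensitive levels, which were lower in U118. C3 (ENSG00000125730, chr19:6677704-6730562), the central component of complement, was at 47, 40 and 43.5 TPM in U87 sensitive and 471, 411 and 385 TPM in U87 resistant libraries. In U118 it was at 4.69, 4.64 and 5.46 and 159, 289.9 and 366 TPM, and the common change was 4.35 (SE 0.35, adjusted p = 9.05e-06). The sensitive U87 libraries already held more C3 than the sensitive U118 ones, and neither line's states overlapped. CXCL8, which encodes interleukin 8, stayed low in U87 at 0.125, 0.695 and 0.211 against 2.59, 3 and 2.91 TPM and reached 13.5, 12.4 and 15.5 from 3, 2.5 and 3.52 TPM in U118, with a change of 1.71 (SE 0.17, adjusted p = 2.99e-05). CCL3, another chemokine gene, was at 8.06, 7.98 and 9 against 34.5, 28.9 and 27.6 TPM in U87 and at 0, 0.111 and 0 against 192, 131 and 137 TPM in U118. CCL3 has near-identical copies beside it, and the counting method was not given in the sources used here, so its level is uncertain. Its line difference was 5.46, adjusted p = 7.53e-09, with the larger rise in U118.

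Of the 44 tested genes in the list of secreted inflammatory factors, 15 were separated higher (34.1%) and 2 lower (4.55%), beside 4.07% and 16.2% of all genes. After scaling the counts were 18 (40.9%) and 1 (2.27%), beside 9.31% and 6.95%. Of the 44, 12 were separated in opposite directions in the lines, or 10 after scaling, beside 1403 and 1641 of the 13217 genes. The line difference was called for 27 of the 44, beside 27.2% of all genes. In the common fit 12 rose and 4 fell, while 18 rose and 0 fell in U87 alone and 15 rose and 12 fell in U118 alone, and the list's median change was 0.28, beside -0.35 for all genes. Of all genes, 3.63% rose and 9.12% fell in common, 2.64% and 7.57% in U87, and 8.73% and 23.4% in U118. The lower pair in TPM were FGF2, a growth factor, and the collagenase gene MMP1. FGF2 was at 4.69 to 7.32 against 8.95 to 24.4 TPM in U87 and 10.1 to 19.1 against 23.1 to 31.5 TPM in U118 and its change of -0.999 lay just short of the fold limit. MMP1 was at 2 to 2.49 against 2.69 to 4.08 TPM in U87 and 1.28 to 5.05 against 681 to 821 TPM in U118, so nearly all of its common change of -4.13 (SE 1.05, adjusted p = 0.00948) came from U118. MMP1 was not separated after scaling, and with single libraries left out its common change was -4.59 to -3.60. Of 23 tested NF-kappa B target genes, 9 were separated higher and 1 lower, or 13 and 0 after scaling. Another 5 were separated in opposite directions, or 2 after scaling, and the line difference was called for 14. The list counted 11 genes called higher and 0 lower in common, against 3.63% and 9.12% of all genes, with a median of 0.87. In U87 alone 7 of them were called higher and 0 lower, against 2.64% and 7.57% of all genes. IER3, an early response gene of this list, rose, at 77.6 to 84 TPM in resistant against 33.9 to 36 TPM in sensitive U87 libraries. In U118 it was at 146 to 269 TPM in resistant against 0.173 to 0.507 TPM in sensitive libraries. NFKB1 itself, which encodes the p50 precursor, was the 1 gene separated lower, at 13.2 to 17.3 against 24.9 to 31.6 TPM in U87 and 12.5 to 17 against 20.6 to 25.8 TPM in U118, with a change of -0.74 that did not pass the fold limit and was not separated after scaling.

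PI3 and HAS1 were at or near 0 in every sensitive library. PI3 (chr20:45174876-45176544) encodes elafin, an inhibitor of neutrophil elastase, and was at 0.334, 0 and 0 against 13.6, 15.7 and 12.3 TPM in U87 and at 0.15, 0.3 and 0 against 38.7, 112 and 115 TPM in U118. Its common change was 4.94 (SE 0.41, adjusted p = 1.21e-05), and U118 resistant replicate 1 was again the lowest of its group. HAS1 (chr19:51713112-51723994), a hyaluronan synthase gene, was listed at 0 in all U87 sensitive libraries and in 2 of the U118 ones, the third holding 0.0411 TPM. The resistant libraries held 24.2, 25.1 and 25.1 TPM in U87 and 31.9, 11.1 and 11.8 TPM in U118, so the states did not overlap in either line, and no fold is given against a group listed at 0. Its neighbour FPR1 (chr19:51745172-51804110), which encodes the formyl peptide receptor, was at 10.6, 10.6 and 10.8 against 76.1, 71.8 and 69.2 TPM in U87 and at 1.66, 1.6 and 1.2 against 76.2, 31.5 and 34.5 TPM in U118. FPR1 rose by 3.41 (SE 0.29, adjusted p = 1.23e-05), and U118 resistant replicate 1 was the highest of its group for both HAS1 and FPR1. CYP1B1, a cytochrome P450 gene, was at 2.54, 6.31 and 2.76 against 30.5, 26.5 and 24.1 TPM in U87 and at 1.94, 2.3 and 2.32 against 54.2, 20.7 and 18.2 TPM in U118, with a change of 2.88 (SE 0.28, adjusted p = 2.66e-05).

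Among the 14 genes with the largest shared rise, 4 do not encode proteins. LINC02392, a long intergenic RNA on chromosome 12, was at 0, 0 and 0.426 against 171, 160.2 and 152 TPM in U87 and at 1.42, 1.14 and 1.42 against 41.6, 39.4 and 53.6 TPM in U118. It rose by 5.73 (SE 0.42, adjusted p = 5.89e-06) and was the gene of this group with the largest excess in U87. AC006262.2 (chr19:46163893-46180647) was at 1.92, 1.75 and 0.918 against 25.4, 18.8 and 19.2 TPM in U87 and 0.0708, 0 and 0.14 against 29.4, 4.66 and 8.71 TPM in U118. IGFL2-AS1 lies next to it (chr19:46189166-46203083) and was at 0, 0.063 and 0.0982 against 9.59, 5.67 and 6.05 TPM in U87 and 0.012, 0 and 0 against 45.9, 18.5 and 19.2 TPM in U118. Both were near 0 in sensitive U118 libraries and rose by 3.31 and 3.82 in common, and the strand used in counting was not given, so antisense reads cannot be told apart from those of a partner gene. MT-TV, the mitochondrial tRNA for valine, was at 19, 20.4 and 16.8 against 139, 162 and 168 TPM in U87 and 16.5, 20.8 and 43.8 against 262, 224 and 221 TPM in U118. It is a very short gene between the mitochondrial rRNA genes, and its rise of 3.09 stands beside the higher mitochondrial share of the resistant libraries.

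**Figure D2:**
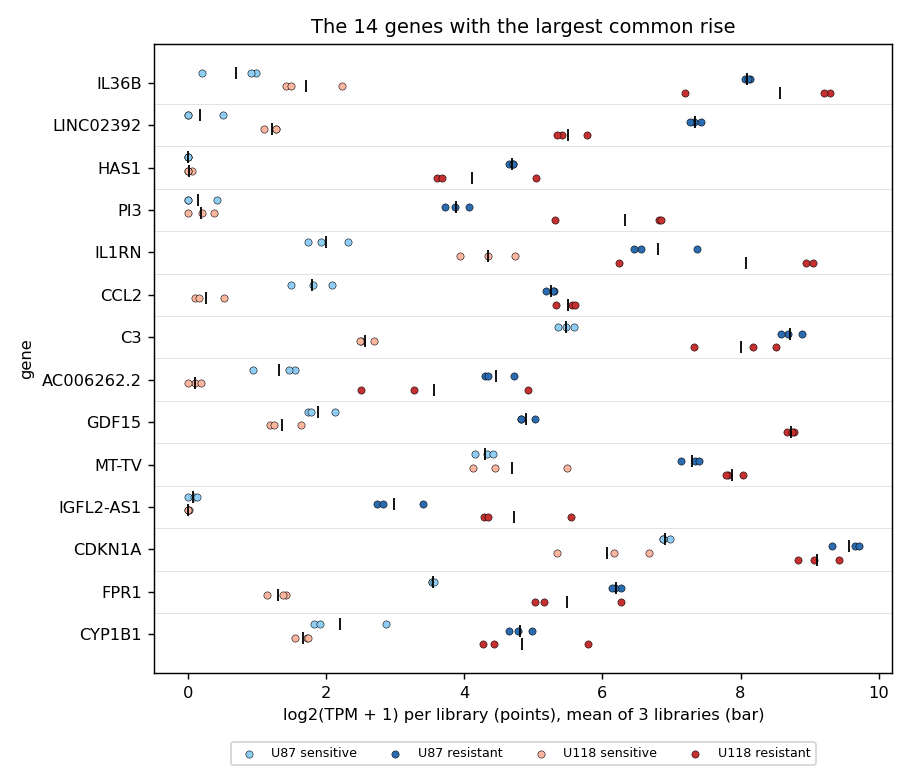
Points give log2(TPM + 1) in each of the 12 libraries for the 14 genes with the largest shared rise, and bars give the mean of 3 libraries; colours mark line and state. For each gene all 6 resistant libraries lie to the right of all 6 sensitive ones, and the 3 U118 resistant libraries spread widest for IL1RN, AC006262.2 and IL36B.

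Of the genes that p53 is known to induce, CDKN1A and GDF15 were among the 14 with the largest shared rise. CDKN1A (ENSG00000124762, chr6:36676460-36687339), the p21 gene, was at 125, 117 and 117 TPM in U87 sensitive and 804, 642 and 838 TPM in U87 resistant libraries. In U118 it was at 101, 39.4 and 71.2 and 687, 534 and 453 TPM. No resistant library overlapped a sensitive one, and the changes in U87 and U118 were 2.65 and 3.04, with a common value of 2.85 (SE 0.20, adjusted p = 4.27e-06). The line difference of CDKN1A was 0.39 (adjusted p = 0.462). GDF15 (chr19:18374731-18389176), a secreted stress cytokine, was at 3.37, 2.35 and 2.44 against 27.4, 31.4 and 27.3 TPM in U87 and at 1.28, 2.1 and 1.36 against 435, 405 and 427 TPM in U118. It rose in both lines, by 3.0 and 7.37, and had the largest line difference of the 28 genes with the largest shared changes (4.37, adjusted p = 3.76e-08).

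Of 36 tested p53 target genes, 10 were separated higher and 0 lower (27.8% and 0%, beside 4.07% and 16.2% of all genes), and 20 and 0 after scaling. The common fit called 12 higher and 0 lower, or 21 and 0 after scaling, and the list median was 0.76 in TPM. Of all genes, 3.63% were called higher and 9.12% lower in TPM, and 5.85% and 2.49% after scaling. In U87 alone 8 were called higher and 0 lower, beside 2.64% and 7.57% of all genes. BTG2, an antiproliferative gene, was at 10.5 to 11.2 against 2.87 to 3.3 TPM in U87 and 8.2 to 23.8 against 0.0949 to 0.379 TPM in U118 and rose by 2.49 (SE 0.34, adjusted p = 0.000317). SESN2, a sestrin gene that restrains mTORC1, was at 34.2 to 38 against 13.7 to 15.8 TPM in U87 and 42.6 to 54.6 against 16.1 to 24.1 TPM in U118 and rose by nearly the same amount in the lines, 1.22 and 1.17. FDXR, the ferredoxin reductase gene, was at 59.9 to 62.8 against 30.3 to 35.9 TPM in U87 and 42 to 57.1 against 7.68 to 10.9 TPM in U118 and rose by 1.58. TRIM22, PLK3 and BBC3 also rose, by 1.46, 1.51 and 1.16 in common, beside changes of 1.31, 1.09 and 0.97 in U87, and BBC3 encodes the proapoptotic protein PUMA. GADD45A was separated higher, at 40.1 to 50.9 against 18.5 to 28.8 TPM in U87 and 90.6 to 159.5 against 44.5 to 69 TPM in U118, but its change of 0.92 did not reach the fold limit in TPM and did after scaling, at 1.33.

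MDM2, the p53 target that encodes its ubiquitin ligase, was not separated. It was at 5.29, 22.8 and 5.54 TPM in U87 sensitive and 22.4, 23.6 and 30.2 TPM in U87 resistant libraries, so sensitive replicate 2 reached the resistant range. In U118 the states overlapped, at 19.4, 10.7 and 19.9 against 45.7, 20.2 and 11.4 TPM. The common change of 0.92 (SE 0.39, adjusted p = 0.0781) did not pass the threshold in TPM, passed at 1.30 after scaling and at 1.09 in TPM recomputed without mitochondrially encoded genes, and passed at 1.14 without U87 sensitive replicate 2 and at 1.17 without U118 resistant replicate 3.

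Many genes of the mitotic machinery were lower in both lines, and 66 of the 87 tested were separated lower and 0 higher, against 16.2% and 4.07% of all genes. After scaling 51 were separated lower and 0 higher, beside 6.95% and 9.31% of all genes. The common fit called 61 lower and 0 higher in TPM and 28 lower and 0 higher after scaling. U87 alone had 55 called lower and 0 higher. Of all genes, 9.12% were called lower and 3.63% higher in TPM, 2.49% and 5.85% after scaling, and 7.57% and 2.64% in U87. The list median was -1.17 in TPM and -0.78 scaled. In bulk RNA, fewer cells in mitosis and less of these transcripts per cell cannot be told apart. CCNB1 (chr5:69167010-69178245), the cyclin B1 gene, was at 315, 349 and 388 against 105, 105 and 132 TPM in U87 and 468, 379 and 318 against 275, 85.2 and 105 TPM in U118. U118 resistant replicate 1 lay closest to the sensitive range, and the common change was -1.56 (SE 0.24, adjusted p = 0.000582). CCNB2, the cyclin B2 gene, was at 176, 197 and 202 against 47.6, 50 and 54.8 TPM in U87 and 181, 177 and 156 against 115, 61.5 and 70.5 TPM in U118, a change of -1.50 (SE 0.18, adjusted p = 0.000152). ECT2, a guanine exchange factor needed for cytokinesis, was at 21.5, 62.1 and 27.9 against 9.76, 11.5 and 10.2 TPM in U87 and 81.3, 55 and 75.6 against 21.5, 19.4 and 21.9 TPM in U118, a change of -1.64 (SE 0.22, adjusted p = 0.000255). U87 sensitive replicate 2 was the highest of its group for ECT2, as it was for the kinesin gene KIF15 and the spindle gene CKAP2. KIF15 was at 5.51, 17 and 7.6 against 2.2, 2.71 and 2.46 TPM in U87 and 16.9, 12.4 and 19 against 3.77, 3.59 and 3.94 TPM in U118, a change of -1.68 (SE 0.23, adjusted p = 0.000298). CKAP2 was at 10.6, 51.1 and 19.4 against 6.94, 6.07 and 6.9 TPM in U87 and 44, 33.4 and 36.9 against 9.61, 9.04 and 16.3 TPM in U118, a change of -1.63 (SE 0.29, adjusted p = 0.0015). With single libraries left out, 56 to 64 genes of the list were called lower.

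The promoters of these genes are shown because the p21 pathway is known to act on mitosis genes through the CHR element, with core TTTGAA, often beside CCAAT boxes. Windows from 250 bases before to 50 after the start site (RefSeq, GRCh38.p14) were matched by symbol for 9123 of 11217 protein-coding genes tested. They were searched on both strands for TTTGAA and CCAAT, read as TTCAAA and ATTGG on the other strand, and a match of one may share an end base with a match of the other. The 250 bases before the start are printed for the 4 separated mitosis genes with the largest smaller-of-lines change and for CCNB2, 5′ to 3′ on the gene's strand, with matches on either strand in capitals.
CCNB1, chr5:69166900-69167149, + strand: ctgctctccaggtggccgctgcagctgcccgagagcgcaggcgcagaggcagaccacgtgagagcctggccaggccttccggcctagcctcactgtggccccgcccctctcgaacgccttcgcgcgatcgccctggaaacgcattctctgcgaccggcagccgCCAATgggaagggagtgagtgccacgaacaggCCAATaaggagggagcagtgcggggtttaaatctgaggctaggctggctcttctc
CCNB2, chr15:59104896-59105145, + strand: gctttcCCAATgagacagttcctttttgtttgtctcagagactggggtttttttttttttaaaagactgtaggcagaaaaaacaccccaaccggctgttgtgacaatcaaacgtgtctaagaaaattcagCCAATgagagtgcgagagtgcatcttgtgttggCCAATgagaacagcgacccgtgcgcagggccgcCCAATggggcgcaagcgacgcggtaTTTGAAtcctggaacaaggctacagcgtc
ECT2, chr3:172750476-172750725, + strand: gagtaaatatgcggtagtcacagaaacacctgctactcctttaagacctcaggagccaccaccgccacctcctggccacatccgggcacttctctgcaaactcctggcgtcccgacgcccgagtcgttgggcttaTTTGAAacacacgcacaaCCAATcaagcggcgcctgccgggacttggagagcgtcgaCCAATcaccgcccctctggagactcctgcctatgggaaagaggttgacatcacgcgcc
KIF15, chr3:44761544-44761793, + strand: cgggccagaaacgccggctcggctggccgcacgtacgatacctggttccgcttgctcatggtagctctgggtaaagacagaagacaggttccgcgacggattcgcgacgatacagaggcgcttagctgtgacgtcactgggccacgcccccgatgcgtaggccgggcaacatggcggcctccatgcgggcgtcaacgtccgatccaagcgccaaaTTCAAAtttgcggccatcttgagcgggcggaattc
CKAP2, chr13:52455738-52455987, + strand: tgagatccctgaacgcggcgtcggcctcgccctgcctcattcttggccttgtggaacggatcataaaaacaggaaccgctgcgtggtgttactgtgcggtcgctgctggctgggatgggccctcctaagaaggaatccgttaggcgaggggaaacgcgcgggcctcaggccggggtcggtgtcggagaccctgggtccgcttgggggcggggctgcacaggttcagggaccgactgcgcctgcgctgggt
In the stretches printed, CCNB2 held 1 TTTGAA and 4 CCAAT, ECT2 held 1 and 2, CCNB1 held 0 and 2, KIF15 held 1 and 0, and CKAP2 held neither. RefSeq starts differ from the GENCODE gene starts used for positions elsewhere. The CKAP2 stretch lies inside the gene by its GENCODE start (52455429). Those of CCNB1, ECT2 and KIF15 run past theirs (69167010, 172750682 and 44761717). Over the whole windows, TTTGAA was found for 38 of the 55 mitosis genes that were separated lower and had a window (69.1%) and for 9.63% of all tested protein-coding genes. Among the 18 mitosis genes with a window that were not separated, 7 held it (38.9%). CCAAT was found for 70.9% of the separated mitosis genes and 37.2% of all, and both motifs for 54.5% and 4.21%. Separated lower genes outside the mitosis list held TTTGAA in 9.27% of windows, close to the share of all genes. A match is a description of the letters, not evidence of binding.

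Some regulators known to act at such promoters were lower as well. LIN9, a core subunit of the MuvB complex, was at 6.24, 14.4 and 7.22 against 1.39, 1.85 and 2.27 TPM in U87 and 7.86, 5.79 and 8.2 against 3.62, 2.47 and 2.62 TPM in U118, a change of -1.44 (SE 0.23, adjusted p = 0.000714). E2F5, a repressor-type E2F, was at 7.95, 8.61 and 9.51 against 0.679, 1.05 and 0.811 TPM in U87 and 9.97, 11.1 and 8.67 against 3.27, 1.54 and 2.38 TPM in U118, a change of -2.05 (SE 0.19, adjusted p = 2.09e-05) with no overlap of the states. The retinoblastoma gene RB1 was at 3.43 to 3.72 against 5.22 to 13.6 TPM in U87 and 8.05 to 8.94 against 21.2 to 30.3 TPM in U118 and fell by 1.21 in TPM, a call that was lost after scaling at -0.84. LIN54, the DNA-binding MuvB subunit, changed by -1.16 and was not separated after scaling. RBL1, the p107 gene, was separated in TPM with a change of -0.80 that was not called. In the list of 12 tested CDK inhibitor and RB family genes, CDKN1A was the 1 gene separated higher (8.33%, beside 4.07% of all genes). These 4 (LIN9, RB1, LIN54 and RBL1) were the lower ones (33.3%, beside 16.2%). After scaling 1 was higher and 2 were lower (16.7%, beside 6.95%). The list's median change was -0.49 in TPM and -0.11 scaled, beside -0.35 and 0.01 for all genes.

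Among the 14 genes with the largest shared fall, PIMREG and CNTRL belong to mitosis and the centrosome. PIMREG, a mitotic regulator, was at 86.3, 81 and 81.1 against 21.6, 19.7 and 30.4 TPM in U87 and 102, 108 and 99.9 against 23.4, 20.1 and 17 TPM in U118. Its change was -2.04 (SE 0.15, adjusted p = 6.21e-06). CNTRL, the centriolin gene, was at 5.37, 8.7 and 5.86 against 1.67, 0.945 and 1.32 TPM in U87 and 11, 7.03 and 11.5 against 2.19, 1.68 and 2.56 TPM in U118, a change of -1.74 (SE 0.18, adjusted p = 5.76e-05). Its line difference of -0.06 was the smallest of the 28 genes.

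The largest shared fall was that of PRDX2 (chr19:12796820-12801859), which encodes peroxiredoxin 2, a cytosolic peroxide reductase. It was at 41, 35 and 40.9 TPM in U87 sensitive and 2.72, 2.57 and 2.11 TPM in U87 resistant libraries. In U118 it was at 217, 316 and 171 and 7.04, 3.19 and 2.28 TPM. All 6 resistant libraries lay below all 6 sensitive ones, and the common change was -4.55 (SE 0.36, adjusted p = 7.89e-06). AP1G2, a clathrin adaptor subunit, was at 18.2, 11 and 16.9 against 2.61, 2.5 and 1.96 TPM in U87 and 9.92, 8.79 and 8.79 against 2.28, 0.678 and 0.341 TPM in U118, a change of -2.32 (SE 0.22, adjusted p = 2.64e-05). ZNF32, a zinc finger gene, was at 5.65, 4.91 and 6.45 against 0.794, 0.57 and 0.229 TPM in U87 and 18.7, 15.6 and 13.9 against 1.08, 0.486 and 0.751 TPM in U118, a change of -2.70 (SE 0.23, adjusted p = 1.23e-05). Both fell to a few TPM or less in each line. GALNT16, an enzyme that starts O-glycosylation, was at 5.33, 4.84 and 4.95 against 0.685, 0.678 and 0.514 TPM in U87 and 19.7, 18.5 and 13.5 against 0.0781, 0 and 0.0245 TPM in U118, a change of -3.01 (SE 0.34, adjusted p = 8.79e-05). NMU, the neuromedin U gene, was at 8.18, 13.1 and 10.8 against 0.124, 0 and 0 TPM in U87 and 3.49, 2.67 and 1.57 against 0.453, 0 and 0 TPM in U118, a change of -2.55 (SE 0.31, adjusted p = 0.000157). Both genes were at or near 0 in at least 1 resistant group, where the change depends on the pseudocount of 1. LRRC8D, a subunit of the volume-regulated anion channel, was at 9.09, 9.39 and 12.3 against 4.31, 2.07 and 1.76 TPM in U87 and 22.8, 27.9 and 26.2 against 3.63, 2.71 and 5.3 TPM in U118, a change of -2.06 (SE 0.23, adjusted p = 8.58e-05).

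For 4 of the 14 genes the states were separated within each line but not across the lines. RNASE1, a secreted ribonuclease gene, was at 20.8, 22.4 and 20.3 against 3.36, 3.98 and 3.21 TPM in U87 and 3.13, 4.5 and 3.09 against 0.0261, 0 and 0.0782 TPM in U118, a change of -2.21 (SE 0.15, adjusted p = 2.96e-06). EPHB4, an ephrin receptor gene, was at 4.23, 3.54 and 4.28 against 0.277, 0.192 and 0.119 TPM in U87 and 39.8, 40.1 and 23.1 against 4.01, 4.36 and 4.42 TPM in U118, a change of -2.39 (SE 0.19, adjusted p = 9.05e-06). For EPHB4 the U118 resistant levels overlapped those of sensitive U87. MIR100HG (chr11:122028327-122556721), the host transcript of miR-100, was at 20.2, 48.9 and 26.6 against 4.8, 4.39 and 5.49 TPM in U87 and 58.6, 52.8 and 101 against 30.4, 11.6 and 10.8 TPM in U118, a change of -2.22 (SE 0.28, adjusted p = 0.00019). DTD1 (chr20:18587893-18766644), which encodes a tRNA proofreading enzyme, was at 48.3, 61.5 and 51.8 against 17.5, 16.1 and 14.4 TPM in U87 and 190.0, 181 and 123 against 69.4, 47.8 and 42.6 TPM in U118, a change of -1.65 (SE 0.16, adjusted p = 2.66e-05). For MIR100HG 1 of the 3 U118 resistant libraries lay within the range of sensitive U87 and the others below it, and for DTD1 1 lay above that range and 2 below. SCARNA22, a small Cajal body RNA that lies inside another gene and may share reads with it, was at 10.5, 10.9 and 6.31 against 1.75, 1.15 and 1.18 TPM in U87 and 11.4, 13.4 and 8.02 against 2.6, 1.53 and 2.14 TPM in U118.

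**Figure D3:**
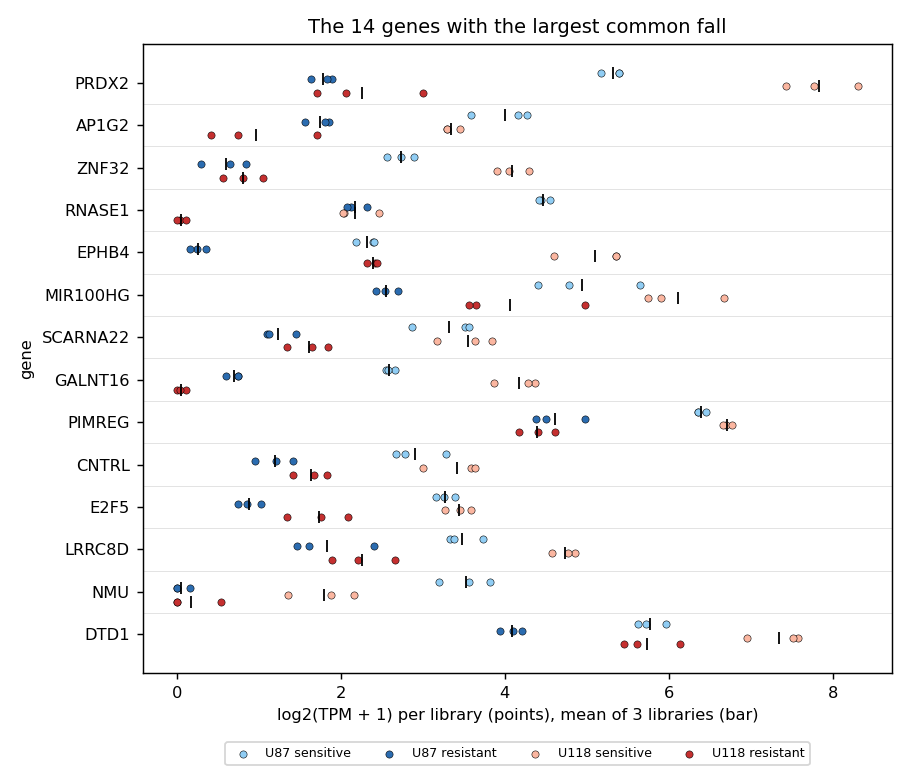
Points give log2(TPM + 1) in each of the 12 libraries for the 14 genes with the largest shared fall, and bars give the mean of 3 libraries; colours mark line and state. Within each line the resistant libraries lie to the left, with PRDX2 at -3.53 in U87 and -5.57 in U118 showing the widest distance.

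Genes of replication, repair and the nuclear lamina were separated lower more often in TPM than after scaling, as were all genes, at 16.2% and 6.95%. Of 56 tested replication genes, 20 (35.7%) were separated lower and 0 higher in TPM, and 10 (17.9%) and 2 after scaling. The common fit called 9 and then 1 lower, beside 9.12% and then 2.49% of all genes. MCM2, a subunit of the replicative helicase, was at 194, 175 and 181 against 84.5, 81.8 and 81 TPM in U87 and 179.8, 196 and 158 against 92, 76.8 and 76.4 TPM in U118, a change of -1.13 (SE 0.11, adjusted p = 2.65e-05) in TPM that became -0.72 after scaling. GINS1, another helicase subunit gene, was at 5.9 to 7.8 against 12.7 to 15.3 TPM in U87 and 9.02 to 20.6 against 56 to 65.4 TPM in U118 and fell by 1.56. It was called under both scalings. Of 35 homologous recombination and Fanconi genes, 8 (22.9%) were separated lower and 0 higher, or 6 (17.1%) and 3 after scaling. CHEK1, the gene of the checkpoint kinase CHK1, was at 6.95 to 9.63 against 13.1 to 22.2 TPM in U87 and 8.19 to 23.6 against 43.2 to 52.9 TPM in U118 and fell by 1.47 (SE 0.25, adjusted p = 0.00103). FANCD2 and RBBP8 changed by -1.05 and -1.26 in TPM, calls that scaling removed, and FANCA by -0.96, which was not called. FANCD2 was also short of the fold limit without U118 resistant replicate 2 (-0.94) or 3 (-0.97). Of 33 genes of damage tolerance and alkylation repair, 6 were separated lower (18.2%) and 1 higher (3.03%), close to the shares of all genes (16.2% and 4.07%). Only 1 was called lower, beside 9.12% of all genes. After scaling 2 were separated lower (6.06%) and 1 higher (3.03%), beside 6.95% and 9.31% of all genes.

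Loss of lamin B1 and of HMGB2 is used as a mark of senescence. LMNB1, the lamin B1 gene, was at 34.7, 45.5 and 39.3 against 20.4, 18.1 and 23.1 TPM in U87 and 57, 64.6 and 66.5 against 33.5, 17.2 and 17.2 TPM in U118. The states were apart in each line, and the change was -1.21 (SE 0.19, adjusted p = 0.000667) in TPM and -0.81 after scaling, where it was not called. HMGB2 was at 128, 246 and 161 against 64.5, 60.1 and 72.2 TPM in U87 and 156, 157 and 144 against 170.4, 51.2 and 63.8 TPM in U118. It was not separated, because U118 resistant replicate 1 lay above all 3 sensitive libraries, and its change of -1.13 (SE 0.26, adjusted p = 0.006) was not called after scaling, at -0.72, or without U87 sensitive replicate 2, at -0.99. LBR, the lamin B receptor gene, was at 31.2, 63.9 and 35.7 against 5.48, 4.61 and 6.09 TPM in U87 and 21.2, 18.5 and 18.9 against 16.3, 6.6 and 6.91 TPM in U118, a change of -1.88 (SE 0.33, adjusted p = 0.00136) that was larger in U87. H2AFX, the H2AX histone gene, was at 184, 174 and 175 against 75, 80.2 and 76.5 TPM in U87 and 357, 372 and 341 against 89.7, 124 and 114 TPM in U118, a change of -1.45 (SE 0.13, adjusted p = 1.64e-05) called under both scalings. Over the 35 tested lamina and chromatin protein genes, 15 (42.9%) were separated lower in TPM and 4 (11.4%) after scaling. Called lower were 9 and then 3, beside 9.12% and then 2.49% of all genes.

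Other lists also depended on the scaling, which took all genes from 4.07% to 9.31% separated higher and from 16.2% to 6.95% lower. Of 50 spliceosome and RNA binding protein genes, 23 (46.0%) were separated lower and 0 higher in TPM, and 6 (12%) and 0 after scaling. Called lower were 4 and then 0, beside 9.12% and then 2.49% of all genes. SNRPB, a core snRNP protein gene, changed by -1.30 in TPM. Of 37 nucleolar genes, 10 (27.0%) were separated lower, or 2 (5.41%) after scaling, and NOP56, a box C/D snoRNP gene, fell by 1.60 (SE 0.29, adjusted p = 0.00155). Of 62 nuclear-encoded respiratory chain genes, 2 were separated higher and 2 lower in TPM (3.23% each), and 17 higher (27.4%) and 1 lower (1.61%) after scaling. The 20 aminoacyl tRNA synthetase genes went from 1 to 6 higher (5% to 30%), and the 36 proteasome genes from 0 to 8 higher (22.2%) and from 2 to 1 lower. None of the 13 mitochondrially encoded protein genes was separated under either scaling, while 10 of 22 mitochondrial tRNA genes and the 2 mitochondrial rRNA genes were separated higher in TPM.

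Lysosomal, metabolic and matrix lists held members that rose under both scalings beside members that fell. CTSK, the cathepsin K gene, rose, at 930.2 to 1006 TPM in resistant against 392 to 476 TPM in sensitive U87 libraries. In U118 it was at 175 to 397 TPM in resistant against 1.62 to 1.89 TPM in sensitive libraries. The 48 lysosome genes counted 5 separated higher (10.4%) and 3 lower (6.25%), and 10 (20.8%) and 2 (4.17%) after scaling. FUCA1, a lysosomal fucosidase gene, was at 0.947 to 1.21 against 4.27 to 4.72 TPM in U87 and 2.19 to 4.76 against 14.8 to 16.5 TPM in U118 and fell by 1.68 (SE 0.18, adjusted p = 7.09e-05). SOD2, which encodes the mitochondrial superoxide dismutase, was at 349 to 375 against 58.5 to 111 TPM in U87 and 124 to 154 against 71.1 to 99.3 TPM in U118 and rose by 1.35 (SE 0.25, adjusted p = 0.00173). FTH1, the ferritin heavy chain gene, was at 14838 to 19057 against 7836 to 8511 TPM in U87 and 8889 to 10133 against 3379 to 5205 TPM in U118 and rose by 1.06 (SE 0.15, adjusted p = 0.000398), or by 0.98 without U118 sensitive replicate 3, which was not called, although its pseudogenes may share its reads. Of 33 NRF2 and antioxidant genes, 6 were separated higher (18.2%) and 3 lower (9.09%), and 11 (33.3%) and 2 (6.06%) after scaling. PRDX2 and SRXN1 were the 2 of this list called lower in TPM, beside 9.12% of all genes. DDIT4, an inhibitor of mTORC1, was at 49.5 to 51.9 against 16.7 to 18.8 TPM in U87 and 57.3 to 127 against 11.9 to 27.6 TPM in U118 and rose by 1.67 (SE 0.23, adjusted p = 0.000323). P4HA2, a collagen prolyl hydroxylase gene, was at 202 to 209.6 against 91.7 to 96.9 TPM in U87 and 113 to 245 against 47.7 to 67.2 TPM in U118 and rose by 1.29 (SE 0.18, adjusted p = 0.000334). LOXL2, a collagen cross-linking oxidase gene, was at 280.3 to 309 against 105 to 109.7 TPM in U87 and 109.6 to 191 against 49.4 to 52.8 TPM in U118 and rose by 1.42 (SE 0.14, adjusted p = 2.99e-05), with changes of 1.46 and 1.37 in the lines. Of 41 tested matrix genes, 4 were separated higher (9.76%), 6 lower (14.6%, beside 16.2% of all genes) and 18 in opposite directions in the lines, beside 10.6% of all genes. After scaling 6 were separated higher (14.6%), 1 lower (2.44%) and 20 in opposite directions.

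Single genes of further lists also moved in common. HLA-B, a class I antigen gene, was at 172, 198 and 119.7 against 704, 742 and 701 TPM in U87 and 114, 76.3 and 45.9 against 380.3, 160.0 and 237 TPM in U118, and rose by 1.93 (SE 0.24, adjusted p = 0.000186). Near-identical class I genes may share its reads. TAP2, which encodes a subunit of the peptide transporter, was at 12.7 to 13.8 against 21.4 to 40.4 TPM in U87 and 21.4 to 38.9 against 70.4 to 98.7 TPM in U118 and changed by -1.25 in TPM and -0.86 after scaling. ALDH1A3, an aldehyde dehydrogenase gene used as a stem cell marker, was at 0.891, 1.53 and 0.473 against 9.4, 8.66 and 7.85 TPM in U87 and 0.112, 0.278 and 0.107 against 183, 50.8 and 54.4 TPM in U118. It rose by 4.22 (SE 0.59, adjusted p = 0.000346), more in U118. Of 21 tested glial and stem cell markers, 3 were separated higher (14.3%) and 5 lower (23.8%), beside 4.07% and 16.2% of all genes. The common fit called 2 higher and 4 lower, beside 3.63% and 9.12% of all genes. After scaling 3 were separated higher (14.3%) and 2 lower (9.52%), beside 9.31% and 6.95%, and 3 were called higher and 0 lower, beside 5.85% and 2.49%. KLF4, a pluripotency factor gene, was at 1.74 to 2.11 against 2.42 to 2.9 TPM in U87 and 6.88 to 10.9 against 26.6 to 36.4 TPM in U118 and fell by 1.07 (SE 0.26, adjusted p = 0.00743), a call lost after scaling at -0.72 and, at -0.97 to -0.93, without U118 resistant replicate 2 or 3 or U118 sensitive replicate 1 or 2, while PROM1 and SOX2 stayed below 1 TPM in every library. NES, the nestin gene, was at 11 to 12 against 7.3 to 8.34 TPM in U87 and 10.4 to 24.1 against 5.76 to 7.57 TPM in U118, and its change of 0.74 did not reach the fold limit. OAS3, an interferon-stimulated gene, was at 6.36 to 6.95 against 30.3 to 31 TPM in U87 and 17.7 to 22.9 against 39.2 to 43.3 TPM in U118 and fell by 1.54 (SE 0.19, adjusted p = 0.000152), and of 31 tested interferon-stimulated genes 2 were separated higher (6.45%) and 4 lower (12.9%), beside 4.07% and 16.2% of all genes. After scaling 4 of these 31 were separated higher (12.9%) and 1 lower (3.23%), beside 9.31% and 6.95%. ATF3, a stress-induced AP-1 family gene, was at 15.6 to 20.5 against 2.6 to 2.91 TPM in U87 and 14.4 to 41.5 against 6.69 to 10.3 TPM in U118 and rose by 1.89 (SE 0.26, adjusted p = 0.000308).

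At the edge of the rule the states nearly touched. LINC-PINT, a p53-linked long noncoding RNA gene, was just inside, at 3.43, 7.88 and 3.88 against 8.42, 7.89 and 9.16 TPM in U87 and 8.11, 7.67 and 7.41 against 45.5, 21.5 and 22.5 TPM in U118, a gap of 0.00067 in log2. SLC35E2B was just outside, at 9.15, 7.94 and 9.35 against 7.94, 6.78 and 7.23 TPM in U87 and 31, 35.8 and 21.3 against 7.23, 4.41 and 4.75 TPM in U118, where the closest U87 libraries overlapped by 0.00004.

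The sizes of the changes were weakly related between the lines. Across the 13217 genes, which are not independent replicates, the U87 and U118 changes had a Spearman correlation of 0.091 and a Pearson correlation of 0.112. The difference between the lines was itself called for 3589 genes (27.2%), and for 177 of the higher and 253 of the lower separated genes. The change was larger in U118 for 429 of the 538 higher and 1632 of the 2145 lower genes. These counts are in TPM, where the median change of all genes was -0.45 in U118 and -0.25 in U87. The share over all genes was not computed, so the counts are not particular to the separated genes. Median changes of the higher genes were 0.69 in U87 and 1.23 in U118, and of the lower genes -0.70 and -1.06. The U118 mean moved toward the level of sensitive U87 for 72.1% of the higher and 83.0% of the lower separated genes, beside 79.5% of all. These shares are partly built in, since the U118 sensitive mean enters both sides of the comparison.

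Genes separated in opposite directions numbered 1403 (10.6%), of which 512 were higher in resistant U87 and lower in resistant U118 and 891 the reverse. For 94.9% of them the U118 mean moved toward sensitive U87, beside 79.5% of all genes, a measure that is partly built in as stated above. FN1, the fibronectin gene, was at 74, 68.2 and 77.9 against 973, 785 and 909 TPM in U87 and 2754, 3309 and 3879 against 334, 78.4 and 83.8 TPM in U118. FST, the follistatin gene, was at 1.68, 2.25 and 1.3 against 19.4, 18.3 and 17.7 TPM in U87 and 575, 536 and 409.9 against 3.96, 0.893 and 1.41 TPM in U118. PDZRN3, a ubiquitin ligase gene, had changes of 3.66 in U87 and -2.84 in U118. These 3 rose in U87 and fell in U118. RPL39L, a ribosomal protein paralog whose reads may be shared with its near-identical relative, was at 85.1, 66.6 and 79.5 against 0.595, 0.644 and 0.561 TPM in U87 and 1.47, 1.7 and 0.942 against 46.9, 43.9 and 56.5 TPM in U118. PRSS3, a trypsinogen gene, was at 9.66, 11.8 and 8.97 against 0, 0.618 and 0.718 TPM in U87 and listed at 0 in U118 sensitive libraries against 41.6, 42.3 and 41.2 TPM in the resistant ones. AL513348.1, a long intergenic RNA, had changes of -2.97 in U87 and 3.15 in U118. These 3 were lower in resistant U87 and higher in resistant U118.

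The separated genes were not spread evenly over the genome, a pattern looked for after the counts were known. On scaled values, 27.1% of the genes on chromosome 20, 19.4% on chromosome 3, 18.1% on chromosome 4 and 12.3% on chromosome 13 were separated lower, beside 6.95% of all, and 19.7% on chromosome 9 were separated higher, beside 9.31%. In TPM the lower shares were 48.4% on chromosome 20 and 33.5% on chromosome 3, beside 16.2%. Of 152 windows of 20 Mb with at least 20 genes, the median window had 4.12% lower and 7.19% higher, 5 windows had over 30% lower and 2 had over 30% higher. The first 20 Mb of chromosome 20 had 47 of 80 genes lower, with scaled median changes of -0.63 in U87 and -0.98 in U118, and DTD1, NOP56, SNRPB and SRXN1 lie there. On chromosome 11, the windows that start at 100 and 120 Mb had 40 of 89 and 24 of 57 genes lower, with medians of -0.52 and -1.0 in the former and -0.55 and -0.79 in the latter for U87 and U118. H2AFX, CHEK1, MIR100HG, MMP1 and SDHD lie in these windows. The windows that start at 160 Mb on chromosome 3 and at 120 Mb on chromosome X had 14 of 38 and 16 of 49 genes lower, and ECT2 lies in the former. The windows of chromosome 9 that start at 0 and 20 Mb had 14 of 41 and 40 of 87 genes higher, with medians of 0.51 in U87 and 0.81 in U118 in the latter. DNA copy number was not measured in these libraries, and what the neighbouring genes share beyond position was not tested.

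**Figure D4:**
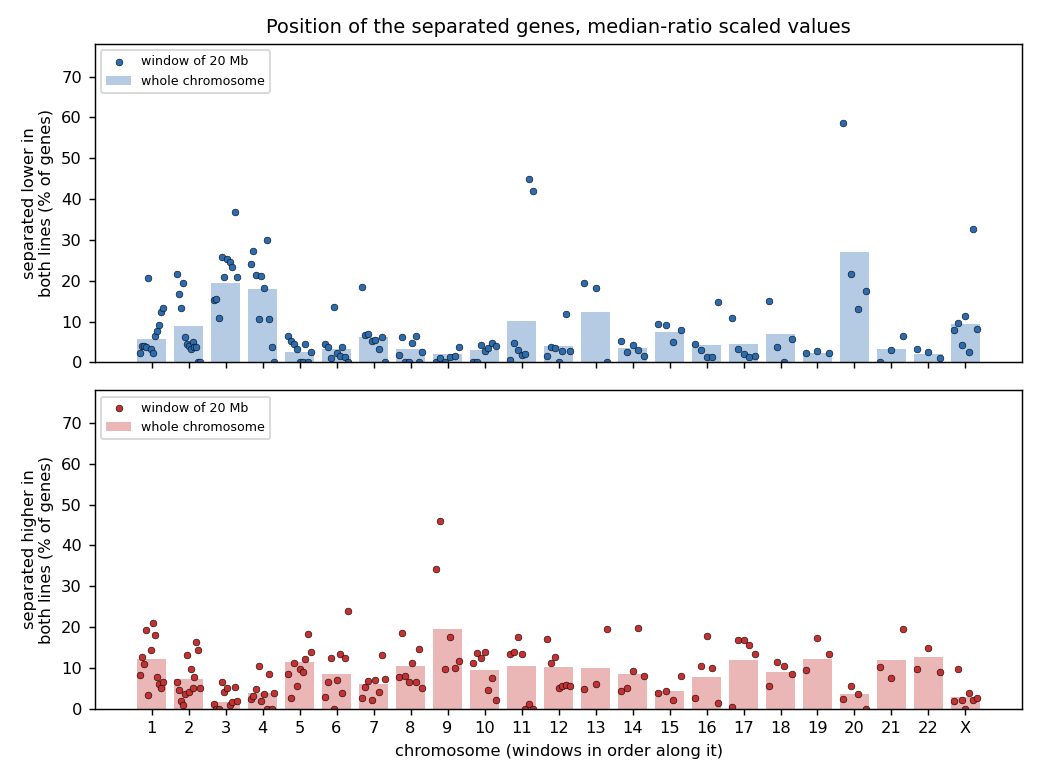
Bars give, for each chromosome, the share of tested genes separated lower (upper panel) or higher (lower panel) in both lines on median-ratio scaled values, and points give windows of 20 Mb with at least 20 genes in their order along the chromosome. The first window of chromosome 20 reaches 58.8% lower and the second of chromosome 9 reaches 46.0% higher.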

How the data were processed

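The mRNA-seq was made with Trizol RNA and the VAHTS mRNA-seq V2 kit, and the submitters' processing notes name FastQC 0.11.2, Trimmomatic 0.36, HISAT2 2.0, bedtools 2.26.0 and the build GRCh38, with no role given. The authors deposited 1 table of gene TPM values per line (transcripts per 1e6, corrected for transcript length), and the counting tool and annotation are not given in the sources used here. TPM keeps no sequencing depth, so depth is unknown and no interval from counts is given. No column of the tables was left unused. Gene names and positions came from GENCODE 29, which held 57836 of the 58174 identifiers, and promoters from RefSeq.

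Changes were computed as resistant minus sensitive on log2(TPM + 1) with limma 3.58.1 (R 4.3.3; lmFit, eBayes with trend) over the 13217 genes that reached 1 TPM in 3 or more U87 and 3 or more U118 libraries, with line as covariate, and p-values were adjusted by Benjamini-Hochberg over all of them. A gene was called at an adjusted p under 0.05 and a log2 change of at least 1 in size. The fit was tested on simulated data with the same change in both lines and no library-wide shift. That simulation does not cover genes whose change differs between the lines. An exact permutation test of 3 against 3 libraries cannot go below 0.1. Values of low genes are compressed by the pseudocount, so fold changes understate them.

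The members and the 34 gene lists were chosen with earlier results of these data known. Genes named in full are the 14 higher and 14 lower separated and called genes with the largest smaller-of-lines change, up to 4 separated genes per direction of a list, the defining genes CDKN1A, MDM2, LMNB1 and HMGB2, the called genes just inside and outside separation, and 3 genes each way separated oppositely. CCNB2, CXCL8, further p53 targets and members that the sentences single out were named after their values were seen, and some genes the rule would name are not reported here. Alternatives changed the pseudocount, filter, scaling, variance model, block, fold limit and libraries.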

Additional observations from a re-analysis of the deposited data

Results flagged for a closer look

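The change differed between the lines for 32 of the 88 genes named here, by the interaction term of the limma fit at an adjusted p under 0.05 and a difference of at least 1 in size, beside 27.2% of all genes. Values are the U118 change minus the U87 change on the log2(TPM + 1) scale, with 3 libraries per group.

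Among genes that rose in common, the rise was larger in U118 for GDF15 (4.37, adjusted p = 3.76e-08), PI3 (2.38, adjusted p = 0.00197), C3 (2.20, adjusted p = 0.000274), IGFL2-AS1 (1.81, adjusted p = 0.00517), CCL2 (1.77, adjusted p = 0.000384) and FPR1 (1.52, adjusted p = 0.00751). The same held for IER3 (6.21, adjusted p = 7.32e-09), CCL3 (5.46, adjusted p = 7.53e-09), CTSK (5.38, adjusted p = 6.03e-08), ALDH1A3 (3.79, adjusted p = 0.000163), BTG2 (1.91, adjusted p = 0.0037) and FDXR (1.31, adjusted p = 0.0012). For IL1B the difference was 3.89, adjusted p = 3.69e-07, with U87 sensitive libraries listed at 0. The rise was larger in U87 for LINC02392 (-2.88, adjusted p = 4.87e-06) and SOD2 (-1.41, adjusted p = 0.00297).

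Among genes that fell in common, the fall was larger in U118 for MMP1 (-7.45, adjusted p = 3.44e-08), GALNT16 (-2.23, adjusted p = 2e-05), PRDX2 (-2.04, adjusted p = 0.00232), SLC35E2B (-1.99, adjusted p = 0.000366), NOP56 (-1.38, adjusted p = 0.0253), KLF4 (-1.47, adjusted p = 0.00156), GINS1 (-1.27, adjusted p = 0.0142) and ZNF32 (-1.14, adjusted p = 0.0101). It was larger in U87 for NMU (1.85, adjusted p = 0.0011), LBR (1.72, adjusted p = 0.00974) and OAS3 (1.03, adjusted p = 0.00263).

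Genes separated in opposite directions differed as well. The difference was -10.32, adjusted p = 1.59e-09 for FST, -8.22, adjusted p = 2.23e-07 for FN1 and -6.50, adjusted p = 6.01e-07 for PDZRN3, which were higher in resistant U87 and lower in resistant U118. It was 10.01, adjusted p = 3.52e-11 for RPL39L, 8.39, adjusted p = 8.29e-10 for PRSS3, listed at 0 in U118 sensitive libraries, and 6.12, adjusted p = 2.26e-08 for AL513348.1. Groups of 3 libraries were not searched for outlying libraries.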

How the results depend on the processing

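Median-ratio scaling of the 12 libraries gave 773 higher and 329 lower common calls, 620 and 468 in U87, 1973 and 1246 in U118, 21 p53 targets called higher and 28 mitosis genes called lower, with 1230 genes separated higher and 918 lower. By the order of the scaling factors, the 918 had to be separated lower in TPM as well. Scaling within each line gave 775 and 330 in common, 570 and 477 in U87, 2054 and 1219 in U118, 21 p53 targets, 28 mitosis genes and 1230 and 941 separated. TPM recomputed without mitochondrially encoded genes, an alternative chosen after seeing the data, gave 771 lower common calls.

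A mean of at least 10 TPM, which tests fewer genes, gave 193 and 575 common calls, 141 and 569 in U87, 469 and 1394 in U118, 1621 line differences, 7 NF-kappa B targets and 275 and 1273 separated genes. Without the fold limit, 888 and 4092 genes were called in common and 1176 and 3912 in U87.

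With single libraries left out, the common calls ranged from 382 to 530 higher and 850 to 1615 lower, the U87 calls from 336 to 402 and 866 to 1335, the U118 calls from 1049 to 1224 and 2442 to 4365, and the line differences from 3216 to 4623. The p53 targets ranged from 12 to 14, the mitosis genes from 56 to 64, the NF-kappa B targets from 9 to 11, and the separated genes from 558 to 628 higher and 2180 to 3132 lower. The other 220 counts under the alternatives stayed within 1.5 times the main count.

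Of 75 named genes called in common, 62 kept the call under every alternative, 12 lost it under either median-ratio scaling and 4 without mitochondrially encoded genes. Common values with no call changed sign for FN1 (-1.02 to 0.083 with single libraries left out, above 0 without U118 resistant replicate 2 or 3), for PDZRN3 (-0.018 to 0.91, below 0 without U87 resistant replicate 1 or U87 sensitive replicate 1), and for AL513348.1 (-0.32 to 0.51, below 0 without any 1 of the 6 U118 libraries).

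The replicate numbers gave no clear sign of pairing the samples. Deviations of same-numbered libraries correlated at 0.011, -0.071 and -0.028 in U87 and at 0.14, 0.065 and 0.087 in U118. With the replicate block, 352 and 1032 genes were called in common, 345 and 960 in U87, 1168 and 3154 in U118 and 3704 line differences, with 11 p53 targets, 60 mitosis genes and 9 NF-kappa B targets.

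The TPM tables hold no counts, so precision at low levels is unknown, and the state effect cannot be told apart from anything else that differs between 1 resistant and 1 sensitive population per line.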
